A study of Caenorhabditis elegans with 2 samples.

Results

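The 6 Hox genes of Caenorhabditis elegans described here, ceh-13, lin-39, mab-5, egl-5, php-3 and nob-1, were taken with 20000 bp of sequence on each side, out of 19985 protein-coding genes in the annotation. All lie on chromosome III, in neighbouring pairs whose windows overlap, so that they form 3 regions with 199807 bp in all. These regions held 95 of the 30000 summits that the authors called on their pooled reads. The rule that selects summits uses gene names and positions and no measured values. The 6 genes themselves were listed with earlier results of these data known.

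The study mapped the binding of SEM-4 by chromatin immunoprecipitation and sequencing (ChIP-seq) against eGFP-sem-4 in whole larvae of the L2 stage. Both samples, biological replicates 1 and 2, came from mixed sex animals of strain OP57, whose genotype is unc-119(ed3) III; wgIs57, the latter an insertion carrying tagged sem-4. All animals thus shared these alleles, and there was neither a second condition nor a strain without the tagged protein. The labels mark them as biological replicates without saying how the animals of each were grown. Because whole animals were used, a peak does not show in which cells it arose, and a few strongly bound cells cannot be told apart from weak binding in many. The labels give neither the promoter that drives the tagged protein nor the cells that make it.

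Hox genes encode homeodomain transcription factors that give cells their identity along the body from head to tail. In C. elegans ceh-13 is the anterior, labial-type gene, lin-39 acts in the mid-body, including the vulval precursor cells, and mab-5 acts in the posterior body, for example in migrating Q neuroblast descendants. The Abdominal-B type gene egl-5 acts in the tail and in some neurons, and php-3 and nob-1 are related posterior genes needed in the posterior embryo. SEM-4 is a zinc-finger protein of the Spalt family. Genetic work places egl-5, and lin-39 in vulval cells, among the genes whose expression it affects. The peak lists do not show whether a bound gene is raised or lowered.

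Each peak was placed by its summit, the base of highest enrichment in the authors' call. The pooled list holds 30000 relaxed peaks, of which the authors kept 2490 after comparing replicates by the irreproducible discovery rate (IDR). This thresholded list, here called reproducible, consisted of the 2490 pooled peaks of highest signal, with a lowest signal of 40.3. Signal is the authors' enrichment value for a peak, and its scale differs between lists, so replicates are compared by rank. For each replicate, the 2490 peaks of highest signal among its own 30000 are called its top list. A promoter window covers 1000 bp before and 200 bp after each start that the annotation gives for a protein-coding transcript.

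Of the 95 pooled summits around the Hox genes, 15 were reproducible, or 15.8% (exact Clopper-Pearson 95% interval 9.12 to 24.7), against 8.3% of the whole pooled list. A single called stretch over egl-5, listed once for each of its summits, supplied 5 of the 15. It is called the run here and the block in the plots. Without it, 10 of 90 summits were reproducible, or 11.1% with an interval of 5.46 to 19.5, which spans the share in the whole list. These intervals cover counting error only, and neighbouring peaks are not independent.

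Relaxed summits were denser around the Hox genes than on average, although these regions hold fewer genes. There were 4.75 pooled summits per 10 kb in the Hox regions, 3.59 on chromosome III and 2.99 in the genome. The 3 regions resembled each other, with 4.75 around lin-39 and ceh-13, 4.61 around mab-5 and egl-5 and 4.99 around php-3 and nob-1. Protein-coding genes started at 1.5 per 10 kb in the Hox regions and 1.99 in the genome, and promoter windows covered 17.7% of the bases against 26.1%. Reproducible summits numbered 0.751 per 10 kb, and 0.50 without the run over egl-5, compared with 0.334 on chromosome III and 0.248 in the genome. In the mab-5 and egl-5 region alone, the density without that run was 0.249. This was close to that of the genome and below that of chromosome III.

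Taken gene by gene, the Hox windows were in the upper part of the distribution over all protein-coding genes for relaxed summits, without being at its end. The windows of lin-39 and php-3 held 25 pooled summits each, a number reached by 7.60% of protein-coding genes. The nob-1 window held 24, the egl-5 window 19, and those of ceh-13 and mab-5 18 each, which 24.5% of genes reached. The median gene had 11, and the median gene on chromosome III had 15. The quartiles on chromosome III were 10 and 21, and egl-5, ceh-13 and mab-5 lay between them. For reproducible summits, egl-5 had 6, a number reached by 1.03% of genes, php-3 and nob-1 had 4, ceh-13 had 3, lin-39 had 2 and mab-5 had 1. At least 1 such summit lay within 20000 bp of 55.6% of all genes, so its presence alone sets none of the Hox genes apart. Without the run of summits in its body, egl-5 also had 1. Neighbouring windows share summits, with 24 in both the php-3 and the nob-1 window and 10 in both the lin-39 and the ceh-13 window.

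**Figure D1:**
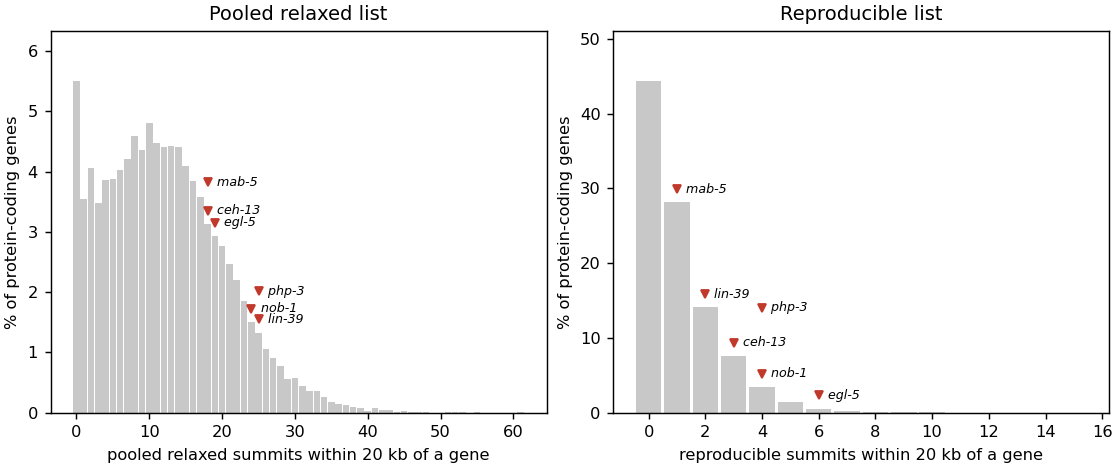
Number of summits within 20 kb of a protein-coding gene (horizontal axis) against the percent of all protein-coding genes with that number (vertical axis), for the pooled relaxed list on the left and the reproducible list on the right; triangles mark the Hox genes and are stacked above the bars only to keep the names apart. All 6 Hox genes had 18 or more pooled summits, above the median of 11 for all genes and of 15 for genes on chromosome III. Of the 6, egl-5 had the most reproducible summits.

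Within the genes themselves, all 6 Hox genes held a relaxed summit, compared with 33.2% of protein-coding genes. Only egl-5, with 5, and nob-1, with 2, held reproducible ones, against 2.77% of genes. Longer genes have more room for a summit, and this share was not adjusted for length. In the promoter windows, 5 of the 6 had a relaxed summit (38.4% of all genes) and 2, mab-5 and nob-1, a reproducible summit (8.7% of all genes). The latter count was sensitive to the settings, falling to 0 when windows took in only 500 bp before and 100 bp after a start. It was 0 when replicate 1 was left out and the top list of replicate 2 used alone, and 1 when replicate 2 was left out.

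**Figure D2:**
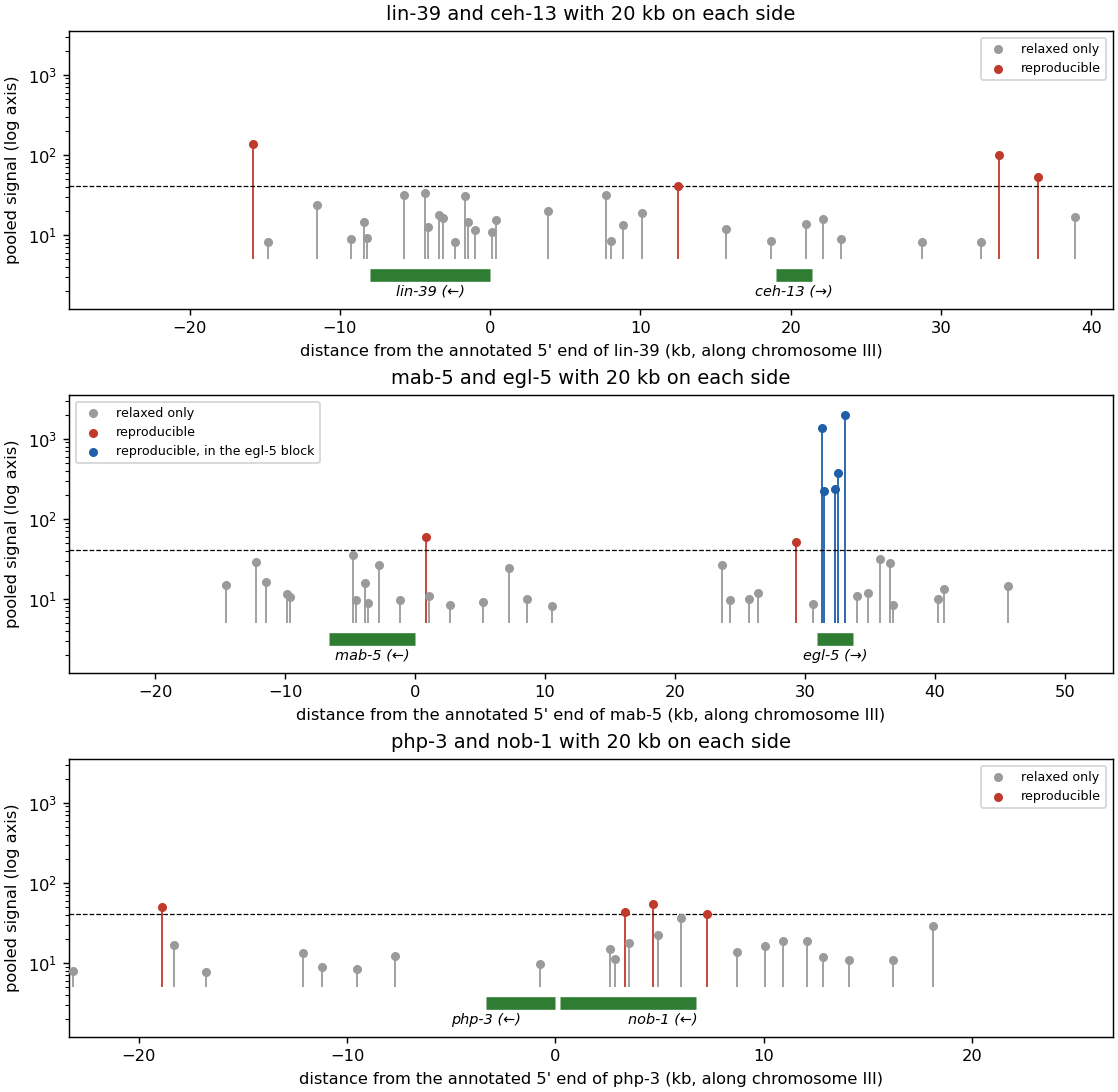
Pooled summits in the 3 Hox regions, with distance along the plus strand from a gene's 5' end in kb on the horizontal axis and the authors' signal on a logarithmic vertical axis; colours separate reproducible from other pooled summits, bars mark the genes, and the dashed line marks the lowest reproducible signal. The 5 summits over egl-5 reach signals of 221 to 1964, while the other 10 reproducible summits lie between 40.5 and 137.

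Lin-39 (WBGene00003024, chromosome III, 7528641 to 7536632, minus strand) is annotated with starts at 7536632 and 7534805. Its body held 9 relaxed summits and no reproducible ones. Of the 5 relaxed summits in its promoter windows the strongest, at 7534942, lay 137 bp upstream of the inner start and inside an intron of the longer transcript. It had a signal of 31.1 in the pooled data, 21.6 in replicate 1 and 14.9 in replicate 2, at ranks 3919, 3510 and 3488. The ranks were alike in the 3 lists, and all fell below the cut of 2490. Downstream in the gene, summits at 7532290 and 7530870 lay in exons of non-coding transcripts, C07H6.18 and C07H6.14, that are annotated within lin-39, with pooled signals of 33.3 and 31.5. These were the 2 strongest summits in the body of lin-39, and both ranked better in replicate 1 (2987 and 3109) than in replicate 2 (7247 and 9522). For the first, the replicate 1 summit was 88 bp away, and the replicate 2 summit was 172 bp away and nearer to another pooled summit. Both of these replicate summits lay in an intron of lin-39 and not in the non-coding exon.

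Ceh-13 (WBGene00000437, 7555660 to 7558041, plus strand) had only weak summits at its own start and in its body. The only summit in its promoter window lay 317 bp upstream of the start, with a signal of 8.41 and rank 26929 of 30000. The only pooled summit in its body was in a coding exon at 7557633, at a signal of 13.8 and rank 13881, and was not found in replicate 2. Replicate 2 alone had a weak summit in an intron at 7556545, with a signal of 4.57.

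The 19027 bp between lin-39 and ceh-13, whose starts face each other, held 10 pooled summits. The strongest, at 7549132, was the only reproducible one there, 6528 bp upstream of ceh-13 and outside all annotated genes. Its signal was 40.5 in the pooled data, 26.2 in replicate 1 and 11.5 in replicate 2. It ranked 2474 among pooled peaks, just above the cut, but 2465 and 5258 in replicates 1 and 2, and thus missed the top list of replicate 2. The second strongest, at 7544365, lay inside the long non-coding RNA gene linc-57 at a signal of 31.2. It ranked 2323 in replicate 2 but 8693 in replicate 1, the opposite order to the summit at 7549132.

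The other 3 reproducible summits of this region lay at starts of genes other than Hox genes. The best of the 4, at 7520866, was 13939 bp downstream of the inner start of lin-39 and 21 bp upstream of the start of cux-7, in a spot that is also within the promoter windows of the DNA ligase gene lig-4 and of C07H6.2. Its signals were 137 in the pooled data, 82.4 in replicate 1 and 59.4 in replicate 2, and its ranks were 167, 181 and 151. The summit at 7570494 was 361 bp upstream of R13A5.7 and 14834 bp downstream of the ceh-13 start, with signals of 100.1, 66.6 and 31.8 in the same order. That at 7573089 lay between the ribosomal protein gene rpl-9, 258 bp away, and lpd-7, with signals of 53.7, 30.4 and 21.7. All 3 were in the top lists of both replicates, in contrast to the summit between the Hox genes.

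The sequences at these summits show the setting of the strongest peaks in the lin-39 and ceh-13 windows and of the peak between the genes. They are plus strand, from the RefSeq copy of assembly WBcel235 (ce11), and span chrIII:7520846-7520916, chrIII:7570444-7570544 and chrIII:7549082-7549182. The first is shortened so as to leave out an annotated untranslated region. Capitals mark matches on either strand to 5 searched motifs: TTGTCT and TTGTGT, which together make up a site described for SEM-4, then ATATT as described for the vertebrate relative SALL4, then TGATNNAT of the type bound jointly by Hox and PBC proteins, and finally TTATTG.
lin-39 window, at cux-7: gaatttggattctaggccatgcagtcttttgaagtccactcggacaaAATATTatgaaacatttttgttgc
ceh-13 window, at R13A5.7: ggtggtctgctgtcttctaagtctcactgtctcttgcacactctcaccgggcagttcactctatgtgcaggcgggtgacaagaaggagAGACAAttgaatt
between lin-39 and ceh-13: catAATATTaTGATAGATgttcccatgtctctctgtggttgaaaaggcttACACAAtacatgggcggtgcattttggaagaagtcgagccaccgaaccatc

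In the sequence between lin-39 and ceh-13, a TTGTGT match on the minus strand was centred 2.5 bp from the summit. The same window held a TGATNNAT match and an AATATT, which matches ATATT on both strands. It was the only reproducible summit around the Hox genes whose window held both a TTGTGT and a TGATNNAT match. A match describes letters and is not a bound site.

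Mab-5 (WBGene00003102, 7776835 to 7783454, minus strand) had 1 reproducible summit in its whole window, at 7784291, 837 bp upstream of its start. The signal was 60 in the pooled data, 47.9 in replicate 1 and 10.5 in replicate 2. The ranks were 1142, 667 and 6023, so that the peak was in the top list of replicate 1 and outside that of replicate 2.

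The introns of mab-5 held 6 relaxed summits, none of them reproducible, and the strongest ranked better in replicate 2. The summit at 7778693, 4761 bp downstream of the start, had signals of 35.6 in the pooled data, 16.1 in replicate 1 and 26.2 in replicate 2, with ranks of 3130, 6057 and 1180. The replicate 1 peak, however, had its summit 198 bp away and lay closer to a weaker pooled summit at 7778902. The summit at 7780669 had a pooled signal of 26.2 and ranks of 5164, 23937 and 2025, and here too the replicate 1 summit was 208 bp away. In replicate 2 both intronic peaks were within the top list and the upstream peak was not, while in replicate 1 the upstream peak was and neither overlapping intronic peak was.

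The strip between mab-5 and egl-5 was 30919 bp long, with 13 pooled and 2 reproducible summits, the latter close to its ends. The longest stretch without a pooled summit in the 3 regions, 13109 bp from 7793964 to 7807073, lay here, over the first part of cyk-7 and the sequence upstream of it. Of all intervals between neighbouring summits in the pooled list, 5.01% were longer. Replicate 1 had 2 summits in it and replicate 2 had 3.

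Egl-5 (WBGene00001174, 7814374 to 7817141, plus strand) carried the 2 highest signals of the entire pooled list, both inside the gene. A single called stretch with 5 summits, from 7814321 to 7817001, covered 94.9% of the gene in 2681 bp. It began 53 bp before the gene and ended 140 bp before the gene's end. Along the gene, pooled signals were 1366 at 7814752, 221 at 7814959, 233 at 7815784, 376 at 7816025 and 1964 at 7816541. The first and last summits thus exceeded the 3 between them, and the highest signal anywhere outside it was 740. The median of the reproducible list was 57.7.

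Each replicate alone had a run of nearly the same extent, with its 2 strongest summits at these positions. In replicate 1 the run was 2680 bp long, with summits along the gene of 870.0, 130, 497, 1450 and 25.5. In replicate 2 it was 2665 bp long, with summits of 559, 128, 12.6, 151, 522 and 98.4. The 2 strongest took the first 2 ranks in both replicates, the downstream one first in replicate 1 and the upstream one first in replicate 2. The middle summit, at 7815960 in replicate 1 and 7815747 in replicate 2, was closer in signal to them in replicate 1. Each replicate also had a weaker last summit, at 7816746 and 7816753, with no counterpart of its own in the pooled list. The pooled summits at 7815784 and 7816025 were matched by the same peak in each replicate, so these 2 are not separately supported.

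By position, the first summit lay in an exon of C08C3.10, a non-coding gene inside an intron of egl-5, 372 bp downstream of the nearest egl-5 start. The next 2 lay in introns, the fourth in the last of the 4 coding exons, which runs from 7815997 to 7816337, and the strongest in the 3' untranslated region. The run therefore crossed exons and introns without stopping at either. The control reads were not analysed here, and whether the run also appears without the tagged protein was not tested.

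**Figure D3:**
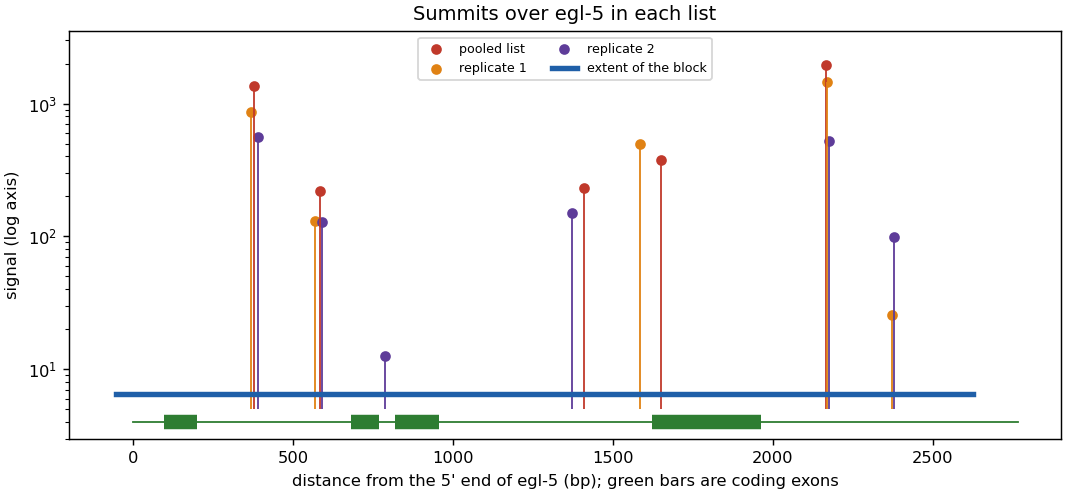
Summits over egl-5 in the pooled list and in each replicate (vertical axis, the authors' signal, logarithmic; scales differ between lists) against distance from the gene's 5' end in bp (horizontal axis), with the coding exons drawn as boxes and the extent of the pooled run as a blue bar. In all 3 lists the 2 strongest summits lie 367 to 389 bp and 2167 to 2177 bp from the 5' end, and the pooled maximum of 1964 lies in the 3' untranslated region.

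Outside that run, egl-5 had 1 reproducible summit. It lay at 7812758, 1616 bp upstream of the start and beyond the promoter window, with signals of 51.0 in the pooled data, 32.1 in replicate 1 and 23.6 in replicate 2. Its ranks of 1593, 1623 and 1466 were nearly equal, and it was the only reproducible summit with a Hox gene as its nearest start, outside the egl-5 body, that was in the top lists of both replicates. The promoter window held a single weak summit, 288 bp upstream, with a signal of 8.53, found in neither replicate's list. Downstream of the gene, summits at 7819214 and 7820006 reached 31.7 and 27.9, below the cut of 40.3. The latter was in the top list of replicate 1, at rank 2235. The replicate 2 peak overlapping it, at rank 2856, had its summit nearer to the pooled summit at 7820209.

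The sequences below are those of the strongest summits in the mab-5 and egl-5 windows outside the run, from chrIII:7784241-7784341 and chrIII:7812708-7812808. Another, from chrIII:7814702-7814802 at the first summit of the run, was added after its value was seen. The marks are as before.
mab-5 upstream: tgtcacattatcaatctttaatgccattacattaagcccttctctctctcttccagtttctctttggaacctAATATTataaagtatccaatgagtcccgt
egl-5 upstream: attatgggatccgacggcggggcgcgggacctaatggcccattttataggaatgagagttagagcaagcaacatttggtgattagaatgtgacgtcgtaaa
egl-5 body, first summit: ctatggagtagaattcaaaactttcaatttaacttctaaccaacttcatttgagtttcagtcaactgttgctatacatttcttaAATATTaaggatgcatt

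None of the 5 motifs was found within 50 bp of the upstream egl-5 summit, which ranked alike in both replicates. The mab-5 window and the window in the egl-5 body held AATATT and no match to the SEM-4 site.

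Nob-1 (WBGene00003779, 12077793 to 12084316, minus strand) was the only Hox gene other than egl-5 with reproducible summits inside it, and the only one with such summits both inside and in the promoter window. It is annotated with starts at 12084316 and 12079435. The summit at 12084821 lay 505 bp upstream of the outer start, with signals of 41.1 in the pooled data, 24.4 in replicate 1 and 17.7 in replicate 2. Its ranks were 2403, 2804 and 2530, so it passed in the pooled list while missing the top list of each replicate by a little.

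The intronic summit at 12082257, 2059 bp downstream of the outer start, had signals of 54.9, 39.5 and 12.1 in the same order and ranks of 1372, 1013 and 4805. The intronic summit at 12080906, 1471 bp upstream of the inner start, had signals of 43.7, 16.8 and 28.6 and ranks of 2144, 5615 and 963. The first was thus in the top list of replicate 1 only, and the second in that of replicate 2 only. A further intronic summit at 12083586 was among those just below the cut, with a signal of 36.7 and rank 2986. In replicate 2 the nearest summit, at 12083602, had a signal of 7.73 and rank 9374, and a second overlapping peak at 12083392, farther away, had 23.5 and rank 1484. Upstream of the gene, 9 pooled summits extended to 12095674, which had a signal of 29.2 and was not found in replicate 2.

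Php-3 (WBGene00004024, 12074218 to 12077556, minus strand) is the paralog that lies immediately downstream of nob-1, with 236 bp and no summit between them. It had no pooled summit in its promoter window. Its body held 1, in an intron at 12076796, with a signal of 9.61 and rank 22853, which ranked 29113 in replicate 1 and was not found in replicate 2. Replicate 2 alone had a weak peak in a coding exon at 12077459, with a signal of 6.20. A stretch of 6948 bp downstream of that intronic summit, reaching into zyg-8, was free of pooled summits, and 10.2% of all intervals were longer. The php-3 window reached 4 reproducible summits because it overlaps that of nob-1. The only one outside the nob-1 gene and its upstream side, at 12058659, lay 201 bp upstream of arx-3, a subunit gene of the actin-nucleating Arp complex, with signals of 50.5, 33.8 and 14.5.

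The 3 reproducible nob-1 summits are shown because they carried the replicate differences given above. They span chrIII:12084771-12084871, chrIII:12082207-12082307 and chrIII:12080856-12080956. The second is the strongest of both the php-3 and the nob-1 window, and the others were chosen after their values were seen.
nob-1 upstream: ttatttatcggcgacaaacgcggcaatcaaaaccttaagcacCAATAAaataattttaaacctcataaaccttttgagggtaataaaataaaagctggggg
nob-1 intron, stronger: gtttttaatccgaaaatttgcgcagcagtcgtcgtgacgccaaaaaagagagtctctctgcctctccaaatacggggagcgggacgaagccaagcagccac
nob-1 intron, near the inner start: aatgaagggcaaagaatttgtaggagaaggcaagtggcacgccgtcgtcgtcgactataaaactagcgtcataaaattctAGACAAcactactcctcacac

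Only the intronic summit near the inner start had a match to TTGTCT, centred 32.5 bp from the summit. The upstream summit had a TTATTG match 5.5 bp from its centre, and the stronger intronic summit had none of the 5 motifs.

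Replicates shared the reproducible peaks but often ranked them differently. All 15 were found in both replicate lists, as were 99.4% of the whole reproducible list. The 5 over egl-5 share the same called stretch, so their overlaps with the replicate lists are not separate. In the top lists of both were 9 of 15, a share equal to the 60% of the whole reproducible list. Without the run over egl-5 the count was 4 of 10. Of those 10, the 6 with a Hox gene as the nearest start included 1 in both top lists, and the 4 at other genes' starts included 3. Ranks of the 10 had a median of 1535 in replicate 1, from 181 to 5615, and of 2128.5 in replicate 2, from 151 to 6023. Medians for the whole reproducible list were 1278 and 1334.5. Neither replicate ranked the Hox peaks better throughout, since 5 of the 10 ranked better in each.

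**Figure D4:**
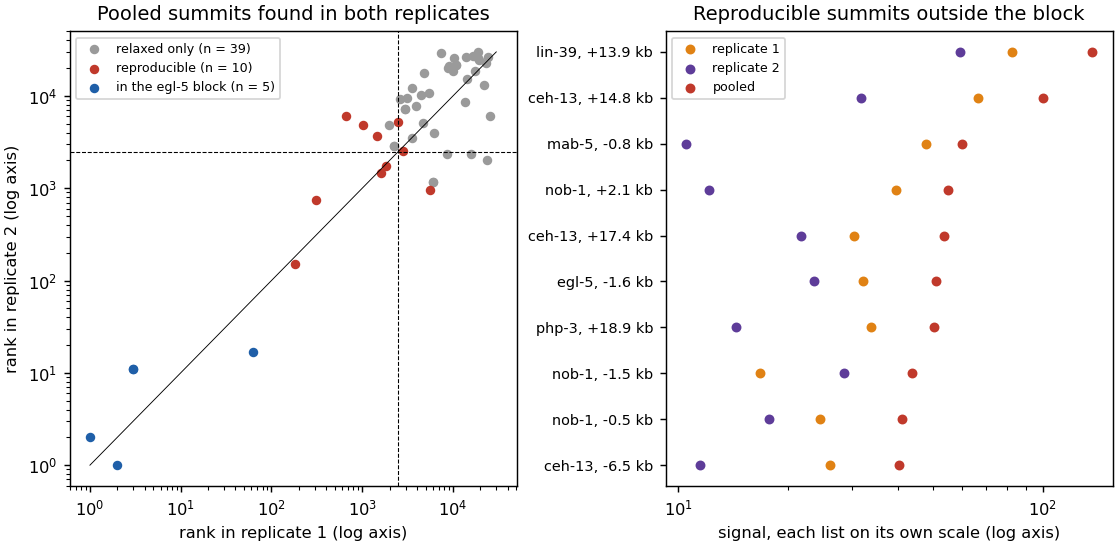
Rank in replicate 1 (horizontal) against rank in replicate 2 (vertical) for the pooled summits of the Hox regions that were found in both, on logarithmic axes where rank 1 is strongest; dashed lines mark rank 2490, and the diagonal equal ranks. The right panel gives the signal of the 10 reproducible summits outside the egl-5 body in each list, on a logarithmic axis, named by the nearest Hox start and the distance to it (negative upstream). The summits over egl-5 lie at the strongest ranks, with 2 of the 5 at the same point, and the mab-5 and nob-1 summits lie beyond the line for 1 or both replicates.

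Among all 95 summits, 82 (86.3%) overlapped a replicate 1 peak and 64 (67.4%) a replicate 2 peak, against 78.9% and 66.3% of the whole list. In the other direction, replicate 1 had 97 summits in the Hox regions, of which 17 had no pooled counterpart, and replicate 2 had 94, of which 33 had none. These shares, 17.5% and 35.1%, were near the 21.4% and 33.9% of the whole replicate lists. The unmatched summits were weak, with a best rank of 11038 in replicate 1 and 7965 in replicate 2. Each top list had 14 peaks in the Hox regions, of which 13 in replicate 1 (92.9%) and 10 in replicate 2 (71.4%) overlapped a reproducible peak. For the whole top lists the shares were 82.7% and 76.1%. The other 4 of replicate 2 were those at 7544365 in linc-57, at the intronic mab-5 summits 7778693 and 7780669, and at 12083392 in nob-1.

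Relaxed summits around the Hox genes lay farther from gene starts than those of the whole pooled list. Beyond every promoter window were 73 of the 95 (76.8%), against 67.2% of the pooled list, and 51 (53.7%) lay over 2000 bp from any start, against 32.8%. The median distance was 2180 bp, compared with 1207 bp. For reproducible summits the 2 measures differed in direction. Over 2000 bp from any start lay 3 of 15 (20%), against 24.5% of the reproducible list. The median distance was 837 bp, and 671 bp without the run over egl-5, compared with 607.5 bp. The lower gene density given above moves with these values, and its part in them was not tested. Intergenic summits, counted here with those in introns of non-coding genes such as linc-57, made up 52.6%, against 43.2%. Those in introns of protein-coding genes made up 30.5%, against 34.8%. There were 8 in coding exons (8.42%, against 11.3%) and 6 in exons of non-coding genes (6.32%, against 4.51%). Another 2 lay in 3' untranslated regions (2.11%, against 4.08%) and none in 5' untranslated regions, against 2.19%.

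Of the 15 reproducible summits, 9 lay beyond every promoter window, against 44.7% of the reproducible list. The run over egl-5 accounts for 5 of the 9, and without it 4 of 10 did. Those 4 were the summit between lin-39 and ceh-13, the upstream egl-5 summit and both nob-1 introns. The nearest start to each of them was that of a Hox gene.

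Motif frequencies around the 95 summits were close to those of the whole list for the SEM-4 site. TTGTCT or TTGTGT was found in 13.7% of the windows, which reach 50 bp to each side of a summit, against 14.5% of all pooled summits. Among the reproducible ones it was in 20% of 15, against 18.6% of 2490. ATATT was in 32.6% of the 95, against 29.2% of all pooled summits. Among the reproducible ones it was in 8 of the 15 (53.3%), against 13.4% of the reproducible list. All 5 summits over egl-5, which share a single called stretch, were among the 8. The reproducible Hox windows were also poorer in G and C, with a median of 41.6% compared with 46.5%, and the part of base composition in the ATATT count was not tested. TGATNNAT was in 13.3%, against 5.22%, and TTATTG in 6.67%, against 6.47%, which at 15 windows rest on 2 windows and 1.

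The listed cofactors of the Hox proteins are the PBC homeodomain genes ceh-20, ceh-40 and ceh-60 and the Meis-type gene unc-62, and 2 of the 4 had a relaxed summit in the promoter window, beside 38.4% of all genes. Of the 4, 1 had a reproducible one, beside 8.7%, namely ceh-20, 752 bp upstream, with a signal of 71.0 and rank 781. It ranked 524 in replicate 1 and 20347 in replicate 2, the widest gap between replicates among the 7 cofactor and regulator genes with a reproducible promoter summit. For unc-62, 8 relaxed summits lay in promoter windows, the best with a signal of 31.1 and rank 3918, and its body held 2 reproducible summits, the best with a signal of 76.7 and rank 684.

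Genes known to regulate Hox expression formed the other list. Of 18 annotated genes, 14 had a relaxed promoter summit, beside 38.4% of all genes, and 6 a reproducible one, beside 8.7%. The sor-1 summit, 493 bp upstream, had a signal of 134 and rank 180, and the sor-3 summit, 263 bp upstream, 67.9 and rank 869. Both genes act with sop-2 to keep Hox genes silent. Lin-59 (108, rank 309) and lin-49 (54.4, rank 1402) are trithorax-type genes that maintain Hox expression, egl-27 (54.8, rank 1380) encodes an MTA-like protein, and mes-2 (44.9, rank 2024) encodes the histone methyltransferase of the Polycomb type. The mes-2 peak ranked 6965 in replicate 2. No reproducible promoter summit was found for the other 12, which were the chromatin genes mes-3, mes-6, sop-2, mig-32 and spat-3, the transcription factor genes pal-1, vab-7, lin-22, vab-3, tlp-1 and pop-1, and the beta-catenin gene bar-1. Reproducible summits in the gene body were found for egl-27, with 6, and tlp-1, with 1 at a signal of 46.8. The list was short and its members were not chosen at random, so these shares describe the named genes alone.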

How the data were processed

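The authors' deposited peak lists on assembly ce11 were used: 1 per replicate, 1 on pooled reads and the IDR-thresholded list, per the deposited text files. Their signal values and the −log10 of a q-value are the authors' own, used to rank and describe peaks within a list. The aligner, peak caller, IDR threshold and versions are not given in the sources used here. Lists hold no read counts, so depth is unknown. Positions are 1-based. Genes came from Ensembl release 115 and sequence from RefSeq, both WBcel235.

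Summits were classed, in this priority, as within a coding exon, a 5' or 3' UTR, a non-coding gene's exon, an intron or intergenic space. Only introns of protein-coding genes counted as introns, so a summit in an intron of a non-coding gene alone was classed as intergenic. An overlap of 1 bp made a match, and the nearest summit gave the replicate value. Motifs were searched on both strands up to 50 bp from each summit. There was 1 group, so no test between groups was run. The members, gene lists and motifs were chosen with earlier results of these data known. Named genes were the 6 Hox genes, genes at their reproducible summits, cofactors and regulators; summits below the cut were named after their values were seen. Of 19 listed regulators, 18 matched the annotation. The placing of summits, the window edges and the matching of peaks were tested on simulated summits at known positions. Python 3.11.15, numpy 2.4.6 and scipy 1.17.1 were used. Other list sizes, windows, flanks and overlaps, and each replicate left out, were tried.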

Additional observations from a re-analysis of the deposited data

How the results depend on the processing

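With the 1245 reproducible peaks of highest signal only, 8 summits remained in the Hox regions, or 8.42% of the pooled ones against 4.15% of the whole list. The 8 were the 5 summits of the run over egl-5 and those at cux-7, at R13A5.7 and upstream of mab-5. Most of this share thus came from the run. The 5 that lay beyond promoter windows were those of the run, and 1 Hox gene had one in its promoter window. A promoter window of 500 bp upstream and 100 bp downstream gave 0 such Hox genes. With either replicate left out, so that the top list of the other stood for the reproducible list, there were 0 to 1 such genes (0 without replicate 1), 14 summits, 14.4% to 14.9% and 9 to 11 beyond promoter windows. Without the run over egl-5, 4 summits lay beyond promoter windows and 4 were in both top lists. Of the recomputed values, 9 moved by more than 1.5 times from those reported and 23 did not. Among the 23 are the 14 summits, the 14.4% to 14.9% and the 9 to 11 given above. Leaving out a replicate could give no value for presence in both top lists. No paired analysis was possible because both samples belong to 1 group. The unknown depth limits what the absence of a peak can show.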
